A study of Mus musculus with 26 samples.

Results

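The semaphorin, plexin and neuropilin genes are the ligands, receptors and co-receptors of one guidance system. Members were taken by symbol: semaphorins of classes 3 to 7, plexins A to D, and Nrp1 and Nrp2. The rule gave 31 genes of the 23152 measured, with 20 semaphorins, 9 plexins and 2 neuropilins. Each was measured by 14 to 35 probe sets that name it alone, 678 in all, and its value is the mean of their log2 signals. No filter on low signal was used, so all 31 members enter every count. On the 6 control arrays, 10 members lay below percentile 50 of all genes throughout, and Sema3d lay below percentile 25.

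The cells were neural stem cells of C57BL6 wild-type mice, isolated from embryos at E14.5, and every sample carried a lentiviral transgene. In the pool set, cells of pools 1, 2 and 3 over-expressed eGFP (6 arrays, 2 per pool, averaged to 1 value a pool), MYBtr, MYBQKI5, MYBQKI6 or QKItr (3 arrays each). MYBQKI joins the transcription factor MYB to QKI, an RNA-binding protein (Qk in the mouse), a fusion described in angiocentric glioma, a childhood brain tumour. In the suppression set, cells over-expressing MYBQKI6 also had Qk suppressed (5 samples) or the bacterial gene LacZ, a control target (3 samples), so every sample of this set carries the fusion. The labels do not say what tr means, what a pool is, what the leading 5, 6 or 9 in a Qk sample's name stands for, or which promoter drove the transgenes. Nothing in them states whether a pool or a numbered sample is an animal or culture of its own. The p-values thus measure only the spread between these samples, which may be technical.

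Semaphorins are secreted (class 3) or held in the membrane by a transmembrane part or a lipid anchor. They bind plexins, whose intracellular part acts on small GTPases and so on the cytoskeleton and adhesion, and most class 3 semaphorins need a neuropilin as co-receptor. The system is best known for steering axons, and in the developing brain it also acts on migrating neural and oligodendrocyte precursors and on vessels.

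Array medians were 5.61 to 5.74 in the pool set and 5.39 to 5.51 in the suppression set, and no comparison crosses the sets. Myb was 4.30, 4.37 and 5.18 on the log2 scale with eGFP in pools 1, 2 and 3. It was at least 6.80 in every pool-set sample with a MYB construct. Qk was 10.69 to 11.43 with QKItr and 10.61 to 10.95 with eGFP, ranges that overlap. With QKItr it lay above eGFP by 0.47, 0.20 and 0.07 in pools 1, 2 and 3. Whether QKItr was expressed was not tested beyond this signal. In the suppression set Myb was 6.21 to 6.79 with Qk suppressed and 6.20 to 6.58 with LacZ suppressed. Of the 8 neural stem cell markers, Sox2, Vim, Fabp7 and Slc1a3 were at percentile 99.0 or above on every eGFP array. Nes was at percentiles 97.2 to 97.7, Pax6 at 63.6 to 70.8, Hes5 at 57.0 to 73.4 and Prom1 at 15.8 to 24.7. For the 3 MYB groups together against eGFP, 1 was called lower and 1 higher without a block (0.825% and 1.18% of all genes). With pools matched 1 was called lower and 1 higher with each MYB construct. For MYBtr, MYBQKI5 and MYBQKI6, 2.64%, 1.36% and 2% of all genes were then called lower and 3.33%, 1.27% and 2.4% higher. Olig1 and Olig2, of the oligodendrocyte precursor list, were at percentiles 99.8 to 99.9. Others of that list were lower, with Sox10 at 41.9 to 48.1, Neu4 at 39.9 to 50.4 and Pdgfra at 57.7 to 71.5. Lhfpl3 was at 59.9 to 78.3 and Cspg4 at 79.5 to 83.8. The summed log2 level of the 8 precursor markers was 55.62 to 57.55 with eGFP and 55.87 to 58.18 with QKItr, against 51.68 to 53.36 with MYBtr, 53.59 to 53.80 with MYBQKI5 and 52.07 to 53.95 with MYBQKI6. Against eGFP 7, 5 and 6 of the 8 lay lower with MYBtr, MYBQKI5 and MYBQKI6. Without a block 1, 0 and 1 were called lower, where 0.471%, 0.0605% and 0.229% of all genes were called lower. Once pools were matched, 4 of 8 were called lower with each, where 2.64%, 1.36% and 2% of all genes were called lower. In that fit 1 of the 8 was called higher for the 3 MYB groups together, against eGFP and against QKItr. Of all genes 3.61% and 5.8% were called higher there. Gpr17 was the dimmest of them with eGFP, at percentiles 30.1 to 43.0. The 6 astrocyte markers summed to 33.04 to 35.78 with eGFP and to 29.45 to 33.89 over the MYB samples of the pool set. These ranges overlap, and 4 of the 6 lay lower than eGFP with each MYB construct. Called lower with MYBtr, MYBQKI5 and MYBQKI6 were 1, 0 and 0 of the 6 without a block, beside 0.471%, 0.0605% and 0.229% of all genes. With pools matched they were 3, 2 and 1, beside 2.64%, 1.36% and 2% of all genes. For the 3 MYB groups together against QKItr all 6 lay lower, with 2 called without a block and 3 with it. Of all genes 1.17% and 4.57% were called lower in these 2 fits. Of the 6 markers of myelinating oligodendrocytes, 1 was called higher without a block against eGFP with MYBtr, with MYBQKI6 and for the 3 groups together. Of all genes 0.898%, 0.536% and 1.18% were called higher there. The summed precursor markers were lower in every MYB sample than in every sample without MYB, and the part of any of these markers in the differences below was not tested. In RNA from whole cultures, fewer cells of a type and less RNA per cell cannot be told apart.

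Promoter windows are shown for 3 members that differ between constructs, a receptor that fell, another receptor that fell once pools were matched, and the ligand with the largest difference. They were searched for 4 hexamers of the type that MYB binds: CAACGG with its variant beginning with T, which is TAACGG, and likewise CAACTG with the form written as TAACTG. The search took in both strands, and no stretch of bases can match more than 1 of them on a strand. Each window runs from 250 bases before to 50 bases after the start of the gene, 5′ to 3′ on the + strand, from RefSeq annotation of GRCm38.p6. They lie at chr1:194619579-194619878 for Plxna2, chrX:73756853-73757152 for Plxnb3 and chr5:17574566-17574865 for Sema3c. Capitals mark a hexamer.
Plxna2: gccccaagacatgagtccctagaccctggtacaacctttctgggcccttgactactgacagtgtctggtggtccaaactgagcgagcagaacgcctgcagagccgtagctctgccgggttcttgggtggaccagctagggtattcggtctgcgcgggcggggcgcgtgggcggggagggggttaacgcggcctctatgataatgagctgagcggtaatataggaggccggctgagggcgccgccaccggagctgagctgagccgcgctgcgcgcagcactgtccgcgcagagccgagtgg
Plxnb3: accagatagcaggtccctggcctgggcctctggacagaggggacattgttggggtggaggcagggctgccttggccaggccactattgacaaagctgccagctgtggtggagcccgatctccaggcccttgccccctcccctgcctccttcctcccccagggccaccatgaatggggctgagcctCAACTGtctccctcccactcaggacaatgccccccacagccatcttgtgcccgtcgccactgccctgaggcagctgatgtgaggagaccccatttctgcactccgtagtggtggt
Sema3c: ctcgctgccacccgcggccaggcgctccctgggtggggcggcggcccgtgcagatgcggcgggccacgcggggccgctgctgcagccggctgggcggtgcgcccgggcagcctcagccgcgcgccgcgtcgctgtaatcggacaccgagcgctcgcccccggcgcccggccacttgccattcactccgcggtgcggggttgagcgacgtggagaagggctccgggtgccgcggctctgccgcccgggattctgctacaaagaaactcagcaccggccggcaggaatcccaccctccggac

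The windows of Plxna2 and Sema3c hold none of the 4 hexamers, and the window of Plxnb3 holds 1, CAACTG, whose first base lies at position -65 from the start. Of the 31 members, 26 had a window in the table, with 37 windows in all. A hexamer was found in 10 of the 37 windows (27.0%), against 9284 of the 32851 windows of all genes (28.3%). Counted by gene, 10 of the 26 members with a window (38.5%) held one in at least 1 window, against 8412 of 27025 genes (31.1%). A match is a description of letters and not a site, and its absence says only that these letters are not in this window.

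Plxna2 was lower with all 3 MYB constructs than with eGFP or QKItr. It encodes plexin-A2, a receptor for the membrane-bound semaphorins of class 6 and, with neuropilins, for secreted ones. Its log2 signal in pools 1, 2 and 3 was 9.17, 9.26 and 9.13 with eGFP and 8.69, 8.85 and 8.96 with QKItr. It was 8.00, 7.77 and 8.07 with MYBtr. It was 8.18, 8.06 and 8.18 with MYBQKI5, and 8.10, 8.01 and 8.10 with MYBQKI6. Every sample with a MYB construct lay below every sample without one, and the 3 MYB groups overlapped each other.

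The comparisons of each construct with eGFP ask what it changes in these cells. They share the eGFP arrays and so are not independent of each other. A gene is called here where its Benjamini-Hochberg adjusted p over all 23152 genes, from limma, is below 0.05. Plxna2 fell by 1.24 (SE 0.12) on the log2 scale with MYBtr, a 2.36-fold lower signal (adjusted p = 0.000236). It fell by 1.05 with MYBQKI5 (SE 0.12, 2.06-fold lower, adjusted p = 0.00187). With MYBQKI6 it fell by 1.11 (SE 0.12, 2.16-fold lower, adjusted p = 0.000724). The mean of the 3 MYB groups lay 1.13 below eGFP (log2 change -1.13, adjusted p = 5.45e-05). That mean lay 0.78 below QKItr (log2 change -0.78, SE 0.10, adjusted p = 0.00112). That Plxna2 falls with MYB was known from these data when the genes were chosen, so these tests are no independent evidence of it.

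With MYBtr, Plxna2 was the 1 member called of 31 (3.23%), where 1.37% of all genes were called. It was likewise the 1 member called with MYBQKI5, where the share of all genes was 0.199%, and with MYBQKI6, where it was 0.765%. For the 3 MYB groups together against eGFP the background was 2% and the 1 member was again Plxna2. Against QKItr 2 members were called, Plxna2 and Sema4c (6.45% of members, 2.95% of all genes).

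QKItr itself lay 0.35 below eGFP for Plxna2 (log2 change -0.35, 95% interval -0.61 to -0.10), lower in 3 of 3 pools, and the samples did not overlap. That difference was not called (adjusted p = 1). By limma, 0 of the 31 members were called for QKItr, as were 0% of all genes, and 1 member, Plxna2, had an unadjusted p below 0.05.

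For Plxna2 the MYB constructs were not called against each other, and the intervals of their differences include 0. MYBQKI5 lay 0.19 above MYBtr (95% interval -0.06 to 0.45). MYBQKI6 lay 0.12 above MYBtr (-0.13 to 0.38) and differed from MYBQKI5 by -0.07 (-0.32 to 0.19). Each of these differences had 1 sign in 3 of 3 pools, and with the pool block their adjusted p were 0.673, 0.920 and 0.997. No member was called in these 3 comparisons by limma, nor was any gene of the array (0%). At an unadjusted p below 0.05 there was 1 member for MYBQKI5 against MYBtr, Sema3c, and 0 members for the others.

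The fall of Plxna2 ran through the whole gene. All 18 of its probe sets were lower than eGFP with each MYB construct, by -0.95 to -1.61 with MYBtr, -0.78 to -1.30 with MYBQKI5 and -0.44 to -1.36 with MYBQKI6. Taken singly over 269751 probe sets, 4 of the 18 were called with MYBtr, 1 with MYBQKI5 and 1 with MYBQKI6, where 0.185%, 0.0652% and 0.113% of all probe sets were called. For the 3 groups together 10 of the 18 were called, against 0.356% of all. With QKItr 17 of the 18 were lower than eGFP and none was called.

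**Figure D1:**
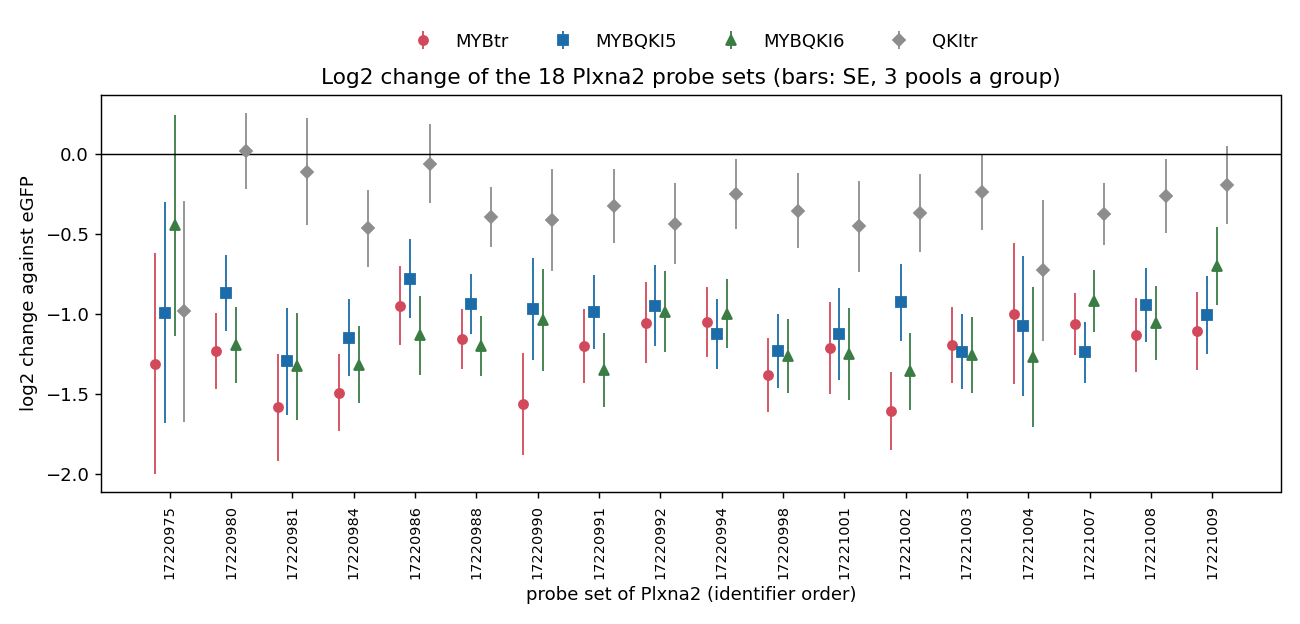
Log2 change against eGFP (y axis) of each of the 18 Plxna2 probe sets (x axis, in identifier order) for the 4 constructs. Points are differences of group means over 3 pools and bars are standard errors. All points of the MYB constructs lie below 0, while QKItr points (grey) lie nearer to it, with 17 of 18 below 0.

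Samples of 1 pool deviate together in these data, so each comparison was also fitted with the pool as a block. In that fit Plxna2 stayed called with each MYB construct (adjusted p = 3.76e-05, 0.000365 and 0.000131 in the order above). The members called rose to 6 of 31 with MYBtr (19.4%), where 5.97% of all genes were called. They were 3 with MYBQKI5 (9.68% against 2.63%) and 5 with MYBQKI6 (16.1% against 4.39%). For the 3 groups together they were 7 against eGFP and 7 against QKItr (22.6% in both cases), with backgrounds of 7.07% and 10.4%. With the block, 0 members and 0% of all genes were called for QKItr against eGFP and for the pairs of MYB constructs. Of single probe sets of Plxna2, the block called 8, 2, 4 and 15 in the order MYBtr, MYBQKI5, MYBQKI6 and all 3, against 0.533%, 0.118%, 0.301% and 1.1% of all probe sets. The genes added by the block are Plxnb3, Sema5b, Sema3c, Nrp1, Sema4c and Sema4b.

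Plxnb3, a plexin of class B that binds Sema5a, was the other receptor to fall with the pools matched. Its signal in pools 1, 2 and 3 was 5.09, 5.68 and 6.21 with eGFP and 5.19, 5.48 and 6.13 with QKItr. It was 3.48, 3.97 and 5.31 with MYBtr, 4.09, 4.35 and 5.01 with MYBQKI5, and 4.05, 4.19 and 5.23 with MYBQKI6. Within each pool all 3 MYB samples were below eGFP and QKItr, but pool 3 was high in every group, and the MYBtr and MYBQKI6 samples overlapped eGFP across pools.

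The change of Plxnb3 was -1.40 with MYBtr, -1.18 with MYBQKI5 and -1.17 with MYBQKI6. Without the block none was called (adjusted p = 0.207, 0.558 and 0.428). With it all were (adjusted p = 0.000321, 0.00243 and 0.00134), and each call held with any 1 sample left out of the blocked fit. Of its 26 probe sets, 25 were lower with MYBtr and 24 with each fusion.

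Of the 9 plexins, 2 lay above eGFP with MYBtr, 2 with MYBQKI5 and 1 with MYBQKI6. Their median changes were -0.29, -0.20 and -0.22, where all genes had medians of -0.01 to 0.00. Plxna3 lay higher by 0.48, 0.38 and 0.31 (adjusted p = 0.0568 for MYBtr with the block). Plxnb2, a receptor for class 4 semaphorins, changed by -0.36, -0.25 and -0.34, and Plxnd1, the receptor for Sema3e, by -0.25, -0.38 and -0.39. Plxna1 changed by -0.22, -0.19 and -0.17, and also by -0.28 with QKItr. Plxna4, Plxnb1 (the Sema4d receptor) and Plxnc1 (the Sema7a receptor) changed by -0.35 to 0.16 with the MYB constructs. None of these 7 plexins was called in either fit.

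**Figure D2:**
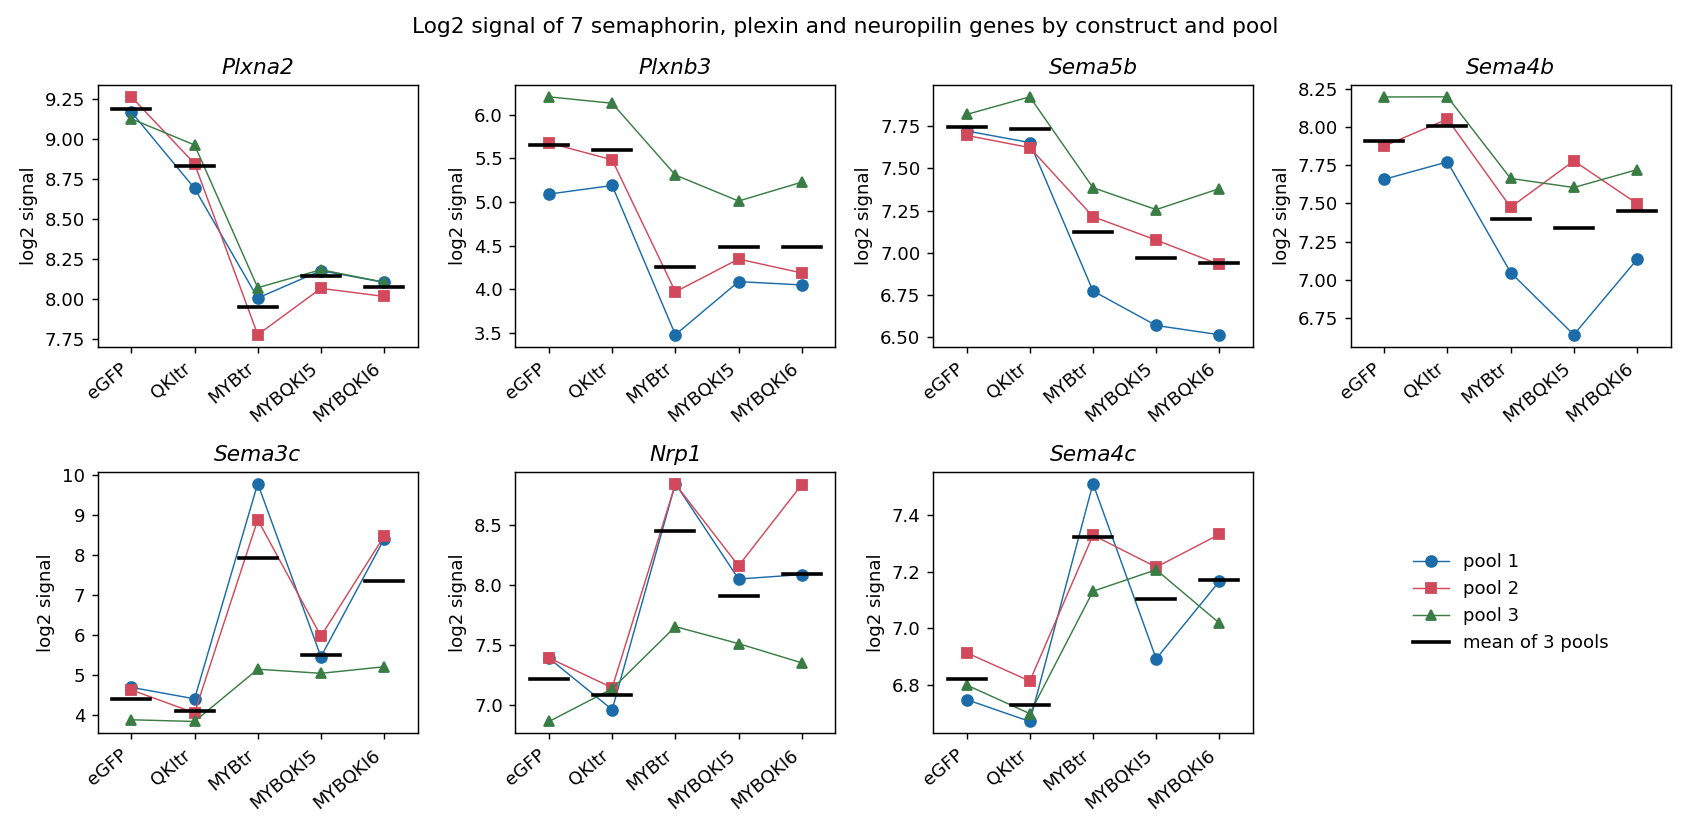
Log2 signal (y axis, scaled separately in each panel) of 7 members by construct (x axis), with 1 point per pool, lines joining samples of a pool and black bars for the mean of 3 pools. Plxna2 samples with a MYB construct all lie below those without, while Plxnb3 and Sema5b are lower within each pool and Sema3c is high mainly in pools 1 and 2.

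The group means of both neuropilins lay above eGFP with every MYB construct. Nrp1 encodes a co-receptor for Sema3a and other class 3 semaphorins that also binds vascular endothelial growth factor. Its signal in pools 1, 2 and 3 was 7.39, 7.39 and 6.86 with eGFP and 6.96, 7.14 and 7.13 with QKItr. It was 8.84, 8.84 and 7.65 with MYBtr, 8.05, 8.16 and 7.51 with MYBQKI5, and 8.08, 8.83 and 7.35 with MYBQKI6. The MYBtr and MYBQKI5 samples lay above all eGFP samples, and the pool 3 sample of MYBQKI6 fell within the eGFP range.

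Nrp1 lay higher by 1.23 with MYBtr (2.35-fold, adjusted p = 0.136 without and 0.00536 with the pool block). The difference was 0.69 with MYBQKI5 (adjusted p = 0.833 and 0.148) and 0.88 with MYBQKI6 (0.486 and 0.0421). All 18 probe sets were higher with each of the 3. The blocked call with MYBtr held with any 1 sample left out. The blocked call with MYBQKI6 was lost without pool 1 or 2 of MYBQKI6 or without any 1 of the 3 eGFP pools, with adjusted p up to 0.274. In pool 3 the difference from eGFP was 0.79 with MYBtr, against 1.46 and 1.45 in pools 1 and 2.

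Nrp2, a co-receptor for Sema3f, was 5.46, 4.89 and 5.28 in pools 1, 2 and 3 with eGFP and 4.75, 5.19 and 5.44 with QKItr. It was 5.13, 5.90 and 5.71 with MYBtr, 5.28, 5.99 and 5.94 with MYBQKI5, and 5.73, 6.03 and 5.55 with MYBQKI6. In pool 1 the MYBtr and MYBQKI5 samples lay below eGFP, by -0.33 and -0.19, and these groups overlapped eGFP. The differences of the group means, 0.37, 0.53 and 0.56, were not called in either fit.

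Sema3c had the largest change of any member with MYBtr and with MYBQKI6, and the largest spread there. It encodes a secreted class 3 ligand that signals through neuropilins and plexins. Its signal in pools 1, 2 and 3 was 4.68, 4.62 and 3.87 with eGFP and 4.40, 4.05 and 3.83 with QKItr. It was 9.79, 8.89 and 5.14 with MYBtr. It was 5.45, 5.97 and 5.04 with MYBQKI5, and 8.40, 8.48 and 5.20 with MYBQKI6. All 9 MYB samples lay above all eGFP and QKItr samples, but only MYBtr and MYBQKI6 in pools 1 and 2 exceeded 8.

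Against the eGFP sample of the same pool, Sema3c differed by 5.11, 4.26 and 1.27 with MYBtr, 3.72, 3.85 and 1.33 with MYBQKI6, and 0.77, 1.35 and 1.16 with MYBQKI5. The mean change was 3.55 with MYBtr (11.7-fold, 95% interval 1.45 to 5.64, adjusted p = 0.112) and 2.97 with MYBQKI6 (7.82-fold, 0.87 to 5.07, adjusted p = 0.278). With the pool block these gave adjusted p = 0.00529 and 0.0187. The MYBtr call then held with any 1 sample left out. The MYBQKI6 call was lost without pool 1 or 2 of MYBQKI6 or of eGFP (adjusted p up to 0.131). MYBQKI5 lay 1.09 above eGFP and was not called (adjusted p = 0.999, and 0.529 with the block).

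MYBQKI5 lay below MYBtr for Sema3c in 3 of 3 pools, by -2.45 on average (95% interval -4.55 to -0.36), and this difference was not called in either fit (adjusted p = 1 and 0.388). With the pool 3 sample of MYBtr left out of the blocked fit it was called. All 20 probe sets of Sema3c were higher than eGFP with MYBtr and with MYBQKI6, and 18 of 20 with MYBQKI5. Leaving out the pool 3 sample of MYBtr raised its change against eGFP to 4.95 without a block (adjusted p = 0.00454).

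The other class 3 ligands differed far less from eGFP. Sema3a, the best known repellent of growing axons, changed by -0.15, -0.34 and -0.40 with MYBtr, MYBQKI5 and MYBQKI6, Sema3b by -0.46, -0.24 and -0.24, and Sema3e by -0.41, -0.36 and -0.36. Sema3f and Sema3g lay within 0.14 of eGFP with each MYB construct, and Sema3d, the dimmest member, changed by -0.22 to 0.03. None was called in either fit.

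Sema5b was lower with each MYB construct in every pool. It encodes a membrane semaphorin of class 5. Its signal in pools 1, 2 and 3 was 7.72, 7.69 and 7.82 with eGFP and 7.65, 7.62 and 7.92 with QKItr. It was 6.77, 7.21 and 7.38 with MYBtr, 6.57, 7.08 and 7.26 with MYBQKI5, and 6.52, 6.93 and 7.38 with MYBQKI6. No MYB sample reached the lowest sample without MYB.

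The change of Sema5b was -0.62, -0.78 and -0.80 (adjusted p = 0.296, 0.257 and 0.161, and 0.0178, 0.0111 and 0.00564 with the pool block). All 21 of its probe sets were lower with each MYB construct. The 3 groups together lay 0.73 below eGFP (log2 change -0.73, adjusted p = 0.0598 without the block). The blocked call with MYBQKI6 held with any 1 sample left out. With MYBtr it was lost without pool 1 or 2 of MYBtr or of eGFP (adjusted p up to 0.117), and with MYBQKI5 without pool 1 of MYBQKI5 or pool 1 or 2 of eGFP (up to 0.0686). Sema5a, its class 5 relative and the ligand of Plxnb3, changed by -0.08, -0.12 and -0.20 and was not called in either fit.

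Of the class 4 membrane semaphorins, Sema4c and Sema4b were called for the MYB groups together once pools were matched. Against eGFP both calls were lost without some single samples. Against QKItr the Sema4c call depended on single samples and, without a block, on the probe sets used. Sema4c, a ligand of Plxnb2, was 6.75, 6.91 and 6.80 with eGFP and 6.67, 6.82 and 6.70 with QKItr. It was 7.51, 7.33 and 7.13 with MYBtr, 6.89, 7.22 and 7.21 with MYBQKI5, and 7.17, 7.33 and 7.02 with MYBQKI6. Every MYB sample lay above every QKItr sample, and the pool 1 sample of MYBQKI5 fell within the eGFP range.

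The 3 MYB groups together lay 0.47 above QKItr for Sema4c (SE 0.11, 1.39-fold, adjusted p = 0.0374, and 0.0078 with the block). That call was lost (adjusted p from 0.0563 to 0.146) without pool 1 or 2 of MYBtr, pool 2 or 3 of MYBQKI5, pool 1 or 2 of MYBQKI6 or any 1 pool of QKItr, and with the block without pool 2 of QKItr (0.0564). It was also lost with the median of probe sets (0.48, adjusted p = 0.166) and with the brightest probe set alone (0.18, adjusted p = 0.660). Against eGFP the 3 groups together were called with the block (adjusted p = 0.0348). This call held in 5 of 12 fits with 1 sample left out, and was lost without pool 2 or 3 of MYBQKI5, pool 1 or 2 of MYBQKI6 or any 1 pool of eGFP (adjusted p up to 0.200). With single constructs the change from eGFP was 0.50 with MYBtr (adjusted p = 0.111, and 0.0271 with the block), 0.28 with MYBQKI5 and 0.35 with MYBQKI6, neither of the latter called in either fit. The blocked MYBtr call held only without pool 3 of MYBtr among the 6 fits with 1 sample left out.

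Sema4b was 7.66, 7.88 and 8.20 with eGFP, and 7.77, 8.05 and 8.20 with QKItr. It was 7.05, 7.48 and 7.66 with MYBtr, 6.64, 7.78 and 7.60 with MYBQKI5, and 7.13, 7.50 and 7.72 with MYBQKI6. Each MYB sample was below eGFP of its own pool, while the groups overlapped across pools. The change was -0.51 for the 3 groups together (adjusted p = 0.423, and 0.0173 with the block) and -0.61 against QKItr (0.190 and 0.00467). Read from its brightest probe set alone, without a block, it was -0.04 and -0.09 (adjusted p = 1 and 0.934). The blocked call against eGFP was lost without pool 1 or 3 of eGFP (adjusted p up to 0.162), and no single construct was called against eGFP in either fit. The blocked call against QKItr held in all 12 fits with 1 sample left out (adjusted p up to 0.0495).

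The other semaphorins of classes 4, 6 and 7 were not called in either fit. Sema4a, Sema4d, Sema4f and Sema4g changed by -0.18 to 0.22 with the MYB constructs. Sema4g separated the pools rather than the constructs, at 6.02 to 6.23 in every pool 1 sample and 7.62 or more in all others. Sema6a, a ligand of plexin-A2, was 9.57, 9.64 and 9.62 with eGFP and 9.45 to 10.05 with the MYB constructs, a change of 0.01, 0.16 and 0.22. Sema6b lay higher by 0.46, 0.17 and 0.41, and by 0.33 with QKItr. Sema6c and Sema6d changed by -0.24 to 0.17 and Sema7a by -0.07 to 0.25.

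**Figure D3:**
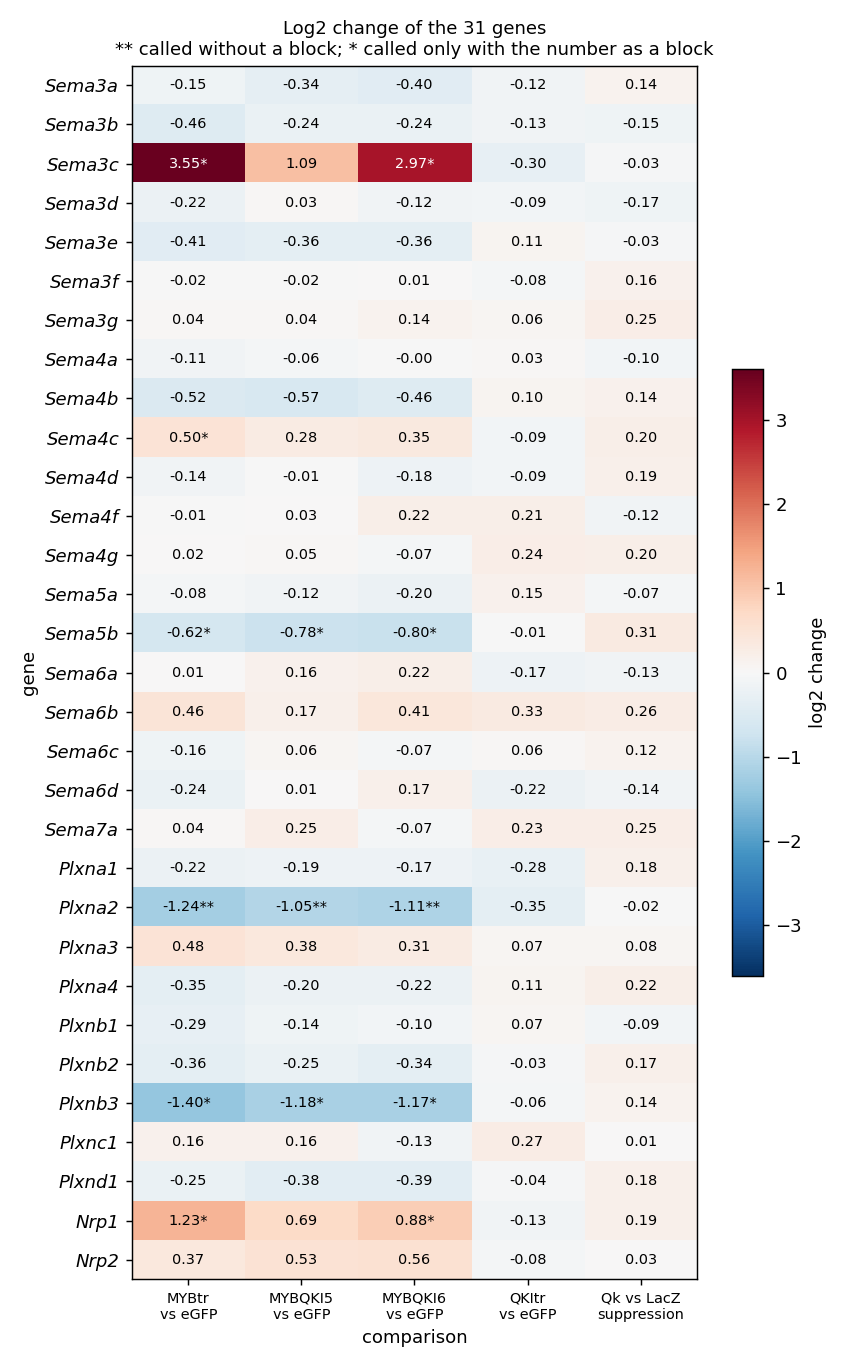
Log2 change of the 31 members (rows) in 5 comparisons (columns). Colour and number give the change, 2 asterisks a gene called without a block, and 1 asterisk a gene called only with the pool number as a block. Plxna2 carries 2 asterisks in the 3 MYB columns, from -1.05 to -1.24, and the columns for QKItr and for Qk suppression carry none.

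Taken as families, 7 of 20 semaphorins lay above eGFP with MYBtr, 11 with MYBQKI5 and 8 with MYBQKI6, with median changes of -0.10, 0.02 and -0.07. Over all 31 members 11, 15 and 11 were higher, with medians of -0.14, -0.01 and -0.10, where 47.1%, 48.5% and 48.8% of all genes were higher. With QKItr 14 of the 31 were higher (median -0.03), and the largest difference was that of Plxna2, -0.35.

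Co-receptors and effectors of semaphorin signalling were taken as a list of 37 genes, 36 of them measured. In limma without a block 1 was called, Erbb2, a receptor tyrosine kinase that can associate with plexins of class B. It lay higher by 0.83 with MYBtr (SE 0.16, adjusted p = 0.0192), by 0.63 for the 3 groups together (0.0176) and by 0.64 against QKItr (0.0134). That is 1 of 36 (2.78%), where 1.37%, 2% and 2.95% of all genes were called in these 3 comparisons. No gene of the list was called with MYBQKI5, MYBQKI6 or QKItr, where 0.199%, 0.765% and 0% of all genes were called. With the pool block 5 of 36 were called with MYBtr (13.9% of the list), 1 with MYBQKI5 (2.78%) and 2 with MYBQKI6 (5.56%). The shares of all genes called in that fit were 5.97%, 2.63% and 4.39%. For MYBtr 3 were higher (Erbb2, Nrcam and Dpysl4) and 2 lower (Dpysl3 and Dpysl5). Dpysl3, Dpysl4 and Dpysl5 belong to the collapsin response mediator proteins, which carry semaphorin signals to the cytoskeleton. Dpysl5 fell by 0.98 and Dpysl4 rose by 0.58 in that fit.

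Slits, netrins, ephrins and their receptors, 43 genes of the other guidance families, were counted in the same way. Without a block none was called by limma against eGFP with MYBtr, MYBQKI5, MYBQKI6 or QKItr. The shares of all genes called there were 1.37%, 0.199%, 0.765% and 0%. Against QKItr the 3 groups together gave 2 calls, the ligand Efna4 (0.77 higher, adjusted p = 0.00943) and the receptor Ephb2 (change -0.58, adjusted p = 0.0148). These were 2 of 43 (4.65%), where 2.95% of all genes were called. With the block 8, 2 and 3 of 43 were called against eGFP. These shares were 18.6%, 4.65% and 6.98% of the list, where 5.97%, 2.63% and 4.39% of all genes were called. Among them were the Slit receptors Robo2 (-0.76, -0.82 and -0.79) and Robo1 (-0.74, -0.58 and -0.88) with each construct. Without a block their adjusted p in limma were 0.259, 0.362 and 0.297 for Robo2 and 0.373, 0.814 and 0.285 for Robo1. The Robo1 samples of MYBtr and of MYBQKI5 overlapped eGFP. Called higher with the block were Efna5 (0.91), Ntng2 (0.73) and Efnb2 (0.86) with MYBtr, and Efnb2 (0.78) with MYBQKI6. Epha5, Ephb1 and Ephb2 were the others called lower with MYBtr.

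Suppressing Qk in cells that carry MYBQKI6 asks what the cells' own Qk adds. Qk itself was 9.35, 9.30, 9.46, 9.70 and 9.58 in the samples labelled as Qk-suppressed (5_2, 6_1, 6_3, 9_1 and 9_3) and 9.68, 9.70 and 9.74 with LacZ suppressed. The sample 9_1 lay within the LacZ range. The mean difference was -0.22 (95% interval -0.55 to 0.10, adjusted p = 0.999), so the array gives no called fall of Qk signal, and directions below rest on the labels.

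Plxna2 was 7.18, 6.11, 6.29, 5.78 and 6.00 with Qk suppressed, in the order above, and 5.70, 7.41 and 5.74 with LacZ. The sample with second number 2 was the highest in both groups, at 7.18 and 7.41. The difference was -0.02 (95% interval -0.89 to 0.86, adjusted p = 1) and 0.17 with the second number as a block. With 1 sample left out it ran from -0.31 to 0.55. With both samples numbered 2 left out, a choice made after seeing the data, it was 0.32 (adjusted p = 0.970).

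None of the 31 members was called for Qk suppression with or without the block, where 0.00432% of all genes were called in each fit, and 0 had an unadjusted p below 0.05. Their changes ran from -0.17 to 0.31, with 20 of 31 higher and a median of 0.14, where 55.5% of all genes were higher with a median of 0.03. Sema5b had the largest, 0.31 (95% interval -0.10 to 0.73). Sema3c was 6.13, 6.72, 6.78, 6.02 and 7.43 with Qk suppressed and 7.10, 5.95 and 6.89 with LacZ, groups that overlap. Its difference was -0.03 (-0.76 to 0.70), while those of Nrp1 and Plxnb3 were 0.19 (-0.38 to 0.76) and 0.14 (-0.33 to 0.61). The 8 precursor markers summed to 48.10 to 50.37 with Qk suppressed and 48.32 to 50.72 with LacZ. The intervals given here are from the fit without a block, and they were not set against changes in the pool set. A change that lies within an interval cannot be told from none in these samples.

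**Figure D4:**
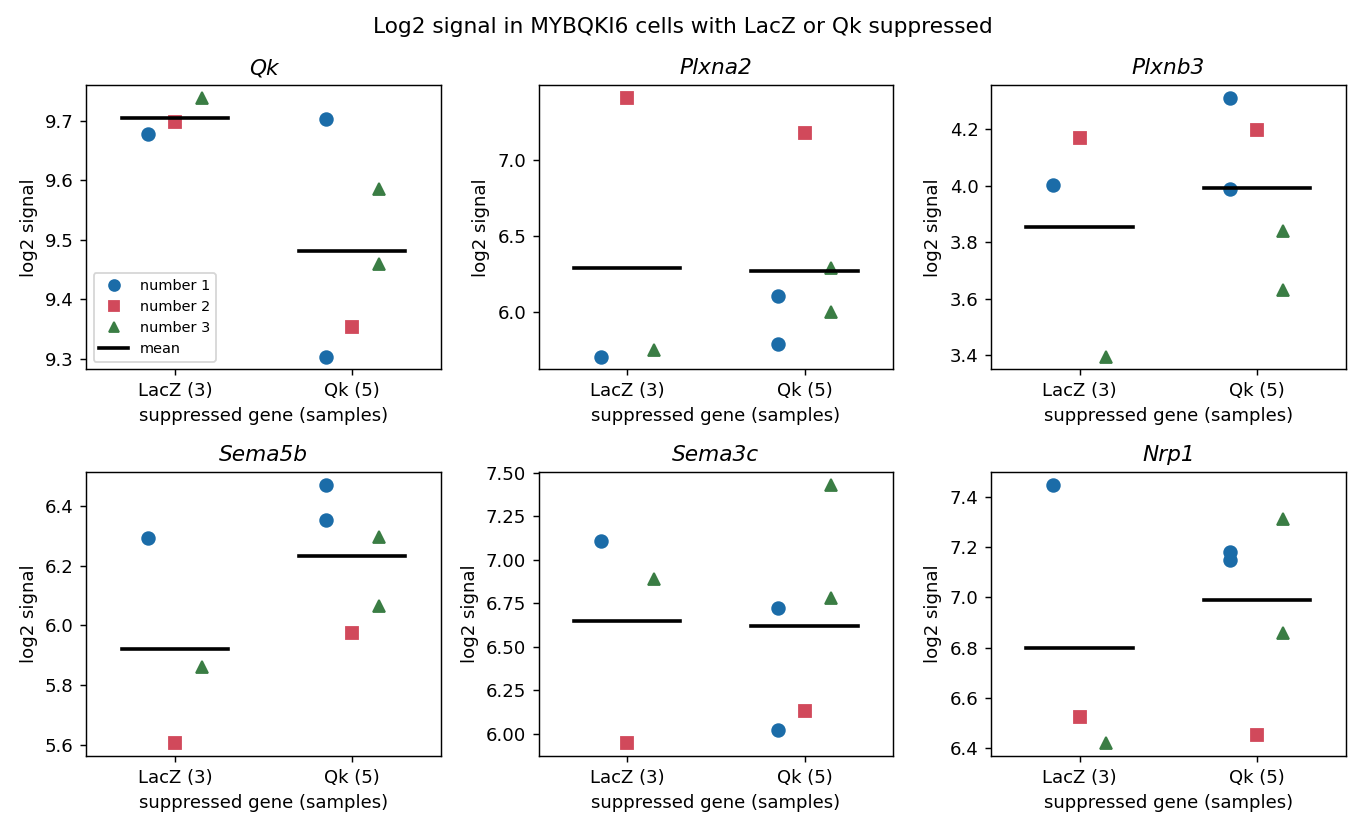
Log2 signal (y axis, scaled separately in each panel) of Qk and 5 members in cells with MYBQKI6 and LacZ (3 samples) or Qk (5 samples) suppressed. Point shape gives the second number in the sample name and black bars the group mean. The groups overlap in every panel, and for Plxna2 the sample numbered 2 is the highest of each group (7.41 and 7.18).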

How the data were processed

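Biotin-labelled total RNA was hybridized to Affymetrix arrays, as the labels state. The values deposited for 269751 probe sets are on a log2 scale, as judged from their range of 0.22 to 14.58. Normalization is not given in the sources used here. A gene was the mean of the probe sets naming its symbol alone (233753 probe sets, 23152 genes), with symbols updated through RefSeq (20875 current, 2208 updated, 69 unmatched). Both eGFP arrays of each pool were averaged. Groups were compared with limma 3.58.1 under R 4.3.3 (lmFit, contrasts.fit, eBayes), the 15 pool columns together and the 8 suppression arrays apart, with Benjamini-Hochberg adjustment over all genes and no filter. The number of arrays limits the precision. Tables were read with data.table, version 1.17.8, and figures drawn with matplotlib 3.10.9 under Python 3.11.15. The fit was tested on simulated data in which samples varied independently. These data held no shared pool effect, so that test says nothing on the choice between the fits with and without a block.

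Samples with the same pool number deviated together from their group means (30 pairs, correlations 0.31 to 0.72, median 0.53, against a median of -0.23 for 60 other pairs). So did suppression samples with the same second number (5 pairs, 0.22 to 0.57). The blocked value therefore stands beside a result whose call or count it changes.

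The members and both gene lists were chosen with earlier results of these data known. Members called without a block are given in every sample. Those called only with the block are given with both adjusted p values, here also by sample. The rest are given by their changes, and list genes are named where called without a block, with a few others chosen after their values were seen. Pak1 is not analysed here. Alternatives tried were the gene summary, a filter on dim genes (percentile 25), array scaling, the eGFP repeat, a variance trend, the block, and each sample left out.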

Additional observations from a re-analysis of the deposited data

How the results depend on the processing

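With the pool as a replicate block, the members called were 6 (MYBtr), 3 (MYBQKI5) and 5 (MYBQKI6) against eGFP, and 7 for the 3 MYB groups together against eGFP and 7 against QKItr. No other count of members called changed with the block. When each gene was read from its brightest probe set alone, 0 members were called with MYBQKI5 (Plxna2 changed by -0.99 with adjusted p = 0.163, limma) and 1 for the 3 groups against QKItr; the cause was not tested. For the 3 groups together against eGFP, 2 members were called, Plxna2 and Sema5b, with the median of probe sets, dim genes left out (17364 genes tested), arrays centred on their medians, quantile normalization, or only the R2 eGFP arrays. Leaving out 1 sample gave 1 to 4 members for MYBtr and 1 to 2 for MYBQKI6 against eGFP. It gave 1 to 5 for the 3 groups against eGFP and 1 to 6 against QKItr. Counts of all genes in the unblocked fits of this paragraph are given only where stated. These member counts thus describe how the calls move, and nothing about the members as a set. The highest counts came without pool 3 of MYBtr, which added Nrp1, Plxnb3 and Sema3c to the MYBtr comparison, and, for MYBQKI6, without its own pool 3, which added Sema5b; all genes called there were 456 and 244. In fits without a block, the counts for MYBQKI5 and QKItr against eGFP, for the 3 pairs of MYB constructs and for Qk suppression held under the remaining settings. In the blocked fit, leaving out 1 sample gave 4 to 6 members for MYBtr, 2 to 4 for MYBQKI5 and 3 to 5 for MYBQKI6 against eGFP, with 566 to 1471, 134 to 377 and 291 to 950 of all genes. It gave 4 to 9 members for the 3 groups against eGFP and 6 to 10 against QKItr, with 726 to 1757 and 1058 to 2553 of all genes. For MYBQKI5 against MYBtr without pool 3 of MYBtr it gave 1 member, Sema3c, with 21 of all genes. No result reversed. Against eGFP, Plxna2 stayed called in all 15 settings with MYBQKI6 (-1.07 to -1.35) and with MYBtr (-1.15 to -1.30). What signal over background limits was not tested.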
